A study of Mus musculus with 17 samples.

Results

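The genes described here are 10 genes of the contractile and stress fibre apparatus, *Acta2*, *Tagln*, *Myl9*, *Cnn1*, *Cnn2*, *Tpm1*, *Tpm2*, *Tpm4*, *Actn1* and *Myh9*, measured by day in sorted cardiac fibroblasts (CFs) after myocardial infarction. They were chosen by symbol, and all 10 were found among the 31053 genes of the count table. The cells were profiled in bulk with MARS-seq, a method that reads polyadenylated RNA from its 3′ end, in 17 libraries, with 3 each at 1, 2, 4 and 6 days post-infarction (dpi), 4 at 3 dpi and 1 at 5 dpi. Every library came from the hearts of C57BL/6 mice of 8 to 10 weeks that carried the Collagen1a1-GFP reporter and had the left anterior descending coronary artery ligated, and the cells sorted were GFP+/CD31-/CD45-. By their labels the groups differ in day, uninjured hearts were not analysed here, and the sex of the mice is not given in the sources used here. The reporter is driven by a collagen I promoter. Before the sort, interstitial cells had been enriched for CFs with Feeder Removal MicroBeads, so the sort took viable GFP+ cells of that fraction that lacked CD31 and CD45. Nothing in the labels says how many mice stand behind 1 library, so that the p-values below measure the spread between these libraries.

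After infarction, fibroblasts of the injured ventricle are known to become myofibroblasts, cells that lay down collagen and pull on the scar. Their pull comes from stress fibres, bundles in which actin filaments, dressed with tropomyosin and calponin and cross-linked by alpha-actinin, slide past bipolar filaments of myosin II. In these cells many contractile genes are known to be driven by serum response factor, which binds the CArG box, and by TEAD factors, which bind the MCAT element. In the set followed here, *Acta2* encodes smooth muscle alpha-actin, the classical myofibroblast marker, and *Tagln* encodes transgelin (SM22), an actin-binding protein of the calponin family. *Myl9* encodes a regulatory light chain of smooth muscle and non-muscle myosin II, and *Myh9* a non-muscle myosin II heavy chain. *Cnn1* and *Cnn2* encode calponins, *Tpm1*, *Tpm2* and *Tpm4* tropomyosins, and *Actn1* an alpha-actinin.

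The promoters of 4 members are shown because their letters hold one of these elements. Of the 10 members, 9 had an entry in the RefSeq promoter table (GRCm38.p6), which gives 250 bases before to 50 bases after a gene's start. Capitals mark 3 kinds of match: a CArG box, a CArG box in which 1 of the 6 core bases is not A or T, and the MCAT letters CATTCC, searched on both strands and so also as GGAATG. The CArG box reads the same way on both strands, and no match overlapped another. The stretches are chr19:34255324-34255623 (minus strand) for *Acta2*, chr2:156775214-156775513 (plus strand) for *Myl9*, chr10:79988350-79988649 (plus strand) for *Cnn2* and chr9:67049164-67049463 (minus strand) for *Tpm1*.
Acta2: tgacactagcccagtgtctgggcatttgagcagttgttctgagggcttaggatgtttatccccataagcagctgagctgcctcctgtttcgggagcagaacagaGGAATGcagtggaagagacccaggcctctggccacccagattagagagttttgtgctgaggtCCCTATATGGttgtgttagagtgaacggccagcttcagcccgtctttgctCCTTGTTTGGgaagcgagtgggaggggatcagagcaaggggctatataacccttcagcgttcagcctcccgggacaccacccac
Myl9: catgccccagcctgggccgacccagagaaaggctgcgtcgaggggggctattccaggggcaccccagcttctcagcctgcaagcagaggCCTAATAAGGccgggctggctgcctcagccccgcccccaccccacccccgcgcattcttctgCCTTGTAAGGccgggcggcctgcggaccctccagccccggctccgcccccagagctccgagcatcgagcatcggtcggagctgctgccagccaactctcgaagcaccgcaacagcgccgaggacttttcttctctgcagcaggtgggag
Cnn2: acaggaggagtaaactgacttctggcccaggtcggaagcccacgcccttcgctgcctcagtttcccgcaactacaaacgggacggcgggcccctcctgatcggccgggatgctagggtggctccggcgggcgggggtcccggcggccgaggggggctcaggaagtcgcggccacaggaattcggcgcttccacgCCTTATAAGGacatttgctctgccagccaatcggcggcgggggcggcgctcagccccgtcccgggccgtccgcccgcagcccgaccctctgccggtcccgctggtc
Tpm1: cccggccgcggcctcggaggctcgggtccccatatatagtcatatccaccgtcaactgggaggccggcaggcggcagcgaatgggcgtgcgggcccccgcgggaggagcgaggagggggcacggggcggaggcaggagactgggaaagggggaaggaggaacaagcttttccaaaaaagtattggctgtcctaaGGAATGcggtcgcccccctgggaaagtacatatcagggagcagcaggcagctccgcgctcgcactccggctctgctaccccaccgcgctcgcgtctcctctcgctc

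*Myl9* held a CArG box 161 bases before its start and a 1-off CArG box 99 bases before it, and *Cnn2* held a CArG box 56 bases before its start. *Acta2* held 2 of the 1-off boxes, 84 and 34 bases before its start, and an MCAT match 146 bases before it. *Tpm1* held an MCAT match 56 bases before its start. Starts are those of the promoter table, and the matches of *Acta2* and *Tpm1* lie inside the longer GENCODE spans of these genes. Of all 32851 promoters of the same length, 1.63% held a CArG box, 8.50% a 1-off CArG box and 14.7% an MCAT match. The same searches matched no letters of the listed promoters of *Cnn1*, *Tpm2*, *Tpm4*, *Actn1* and *Myh9*. Such matches describe letters only, and binding was not measured here.

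All 9 fibroblast markers were present in every library. In each of them *Col1a1* had at least 12665 counts and *Dcn*, which encodes the matrix proteoglycan decorin, at least 47229 counts, and *Col1a1* is also the gene of the reporter. The list did not move as a whole: at 3 to 5 against 1 and 2 dpi 4 of the 9 were higher, *Postn* (log2 fold change 2.03, SE 0.25, adjusted p = 2.5e-05), *Col1a1*, *Col1a2* and *Col3a1*, and 3 were lower, *Lum* (-1.01, SE 0.29, adjusted p = 0.039), *Ddr2* and *Pdgfra*, of which the lower ones and *Col3a1* are named after their values were seen. These moved beside the members in that comparison, and their part in it was not tested. There, 5.25% of all genes tested were higher and 2.24% lower at an adjusted p under 0.05. Library totals lay between 8021815 and 22029938 counts (median 14123952). *Ptprc*, which encodes the leukocyte protein CD45, had 0 counts in 12 libraries and at most 37, whereas *Pecam1*, which encodes the gated protein CD31, had between 7 and 241 counts and was at 0 in none. Of the other endothelial markers *Cdh5* had 0 counts in 10 libraries and *Tek* between 147 and 787 in all of them. Mural cells (smooth muscle and pericytes), which also express several of the members, carry neither CD31 nor CD45 as a rule, and no step of the sort was aimed at them. Their markers were present in every library, with *Myh11* between 50 and 588 counts and *Rgs5* between 48 and 856 counts. In the labels the names of the 3 dpi libraries follow another pattern than the rest, so that 3 dpi and that naming cannot be told apart. *Xist* exceeded the summed counts of *Uty*, *Kdm5d*, *Eif2s3y* and *Ddx3y*, which lie on the Y chromosome, in every 4 and 6 dpi library and in 1 dpi replicate 1, and the reverse held in the other libraries. In bulk samples, fewer cells of a type and less RNA per cell cannot be told apart.

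All 10 members passed the filter of at least 10 counts in at least 3 libraries, which left 14030 genes to test, and 9 of them differed between days. The exception was *Myh9* (adjusted p = 0.35, edgeR's quasi-likelihood F-test over all 6 days, with Benjamini-Hochberg adjustment over all genes tested). Of all genes tested, 15% differed between days. Together the 10 members took between 0.0961% and 0.153% of a library's counts at 1 and 2 dpi, between 0.243% and 0.401% at 3 dpi, between 0.302% and 0.369% at 4 dpi, 0.432% at 5 dpi and between 0.207% and 0.273% at 6 dpi. No library of 3 dpi or later overlapped the libraries of 1 and 2 dpi in this summed share. Levels of single genes are given below as log2 CPM, counts per 1e6 of the TMM-normalized library size (CPM) with a prior count of 2. They serve to compare libraries and not genes, since 3′ counting does not scale a transcript by its length.

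**Figure D1:**
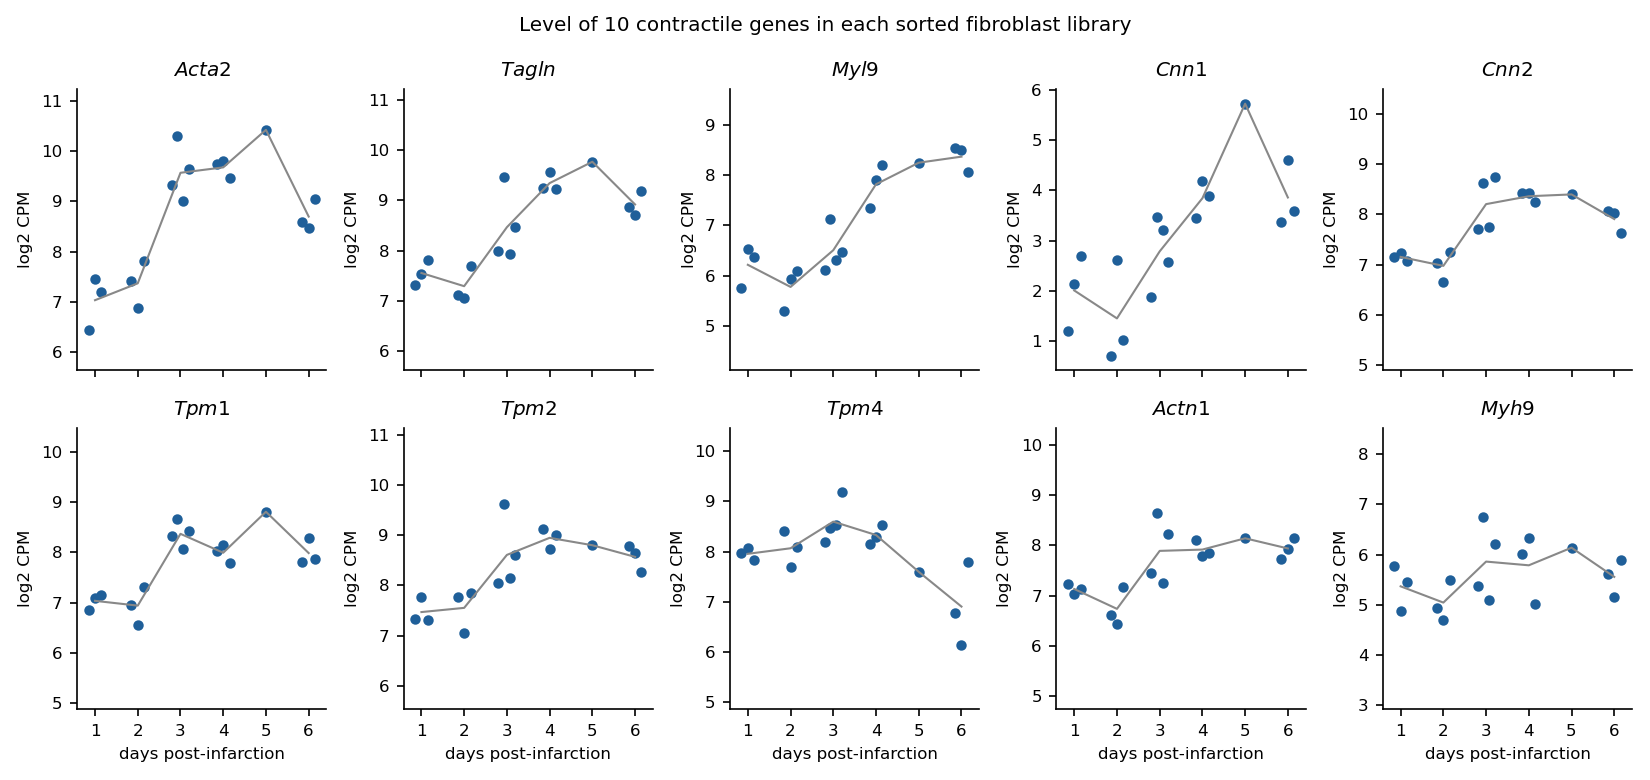
Level of each member in log2 CPM (y axis, the same span of 5.6 units in every panel) against days post-infarction (x axis). Each point is 1 of the 17 libraries and the grey line joins the day means; *Acta2* rises most steeply between 2 and 3 dpi, *Myl9* climbs to 6 dpi, and *Tpm4* lies lowest at 6 dpi.

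*Acta2*, the classical marker, was low at first and rose between 2 and 3 dpi. *Acta2* stood at 6.45, 7.46 and 7.19 log2 CPM at 1 dpi and at 7.42, 6.87 and 7.81 at 2 dpi. At 3 dpi it stood at 9.32, 10.29, 9.01 and 9.64, so that every 3 dpi library lay above every earlier one. The level was 9.74, 9.81 and 9.47 at 4 dpi, 10.42 in the 5 dpi library, and 8.58, 8.46 and 9.05 at 6 dpi. From 2 to 3 dpi *Acta2* rose 4.69-fold (log2 fold change 2.23, SE 0.34, adjusted p = 0.0024), the largest change of any member between neighbouring days, and the call was kept under all 27 alternatives of the processing. Between 3 and 4 dpi its libraries overlapped. All 3 libraries of 6 dpi lay below all 3 of 4 dpi and above all of 1 and 2 dpi. The 6 against 4 dpi difference did not pass the test (log2 fold change -0.96, SE 0.34, adjusted p = 0.14), while *Acta2* was higher at 6 than at 1 dpi (3.09-fold, log2 fold change 1.63, SE 0.35, adjusted p = 0.0047).

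*Tagln* followed more slowly. Its levels were 7.32, 7.53 and 7.81 log2 CPM at 1 dpi, 7.11, 7.06 and 7.70 at 2 dpi and 7.99, 9.46, 7.94 and 8.47 at 3 dpi. They were 9.24, 9.57 and 9.22 at 4 dpi, 9.77 at 5 dpi and 8.86, 8.71 and 9.18 at 6 dpi. The 3 dpi spread came mostly from replicate 2, and all 4 libraries lay above those of 1 and 2 dpi. *Tagln* rose 2.44-fold from 2 to 3 dpi (log2 fold change 1.28, SE 0.33, adjusted p = 0.04) and was 4.09-fold higher at 4 than at 2 dpi (adjusted p = 0.004). The first call was lost under 11 of 27 alternatives and the second under none of 26. From 3 to 4 dpi the difference was 0.75 on the log2 scale (SE 0.31, adjusted p = 0.21), and it passed without 3 dpi replicate 2.

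*Myl9*, the myosin light chain, had a later course. It stood at 5.76, 6.52 and 6.36 log2 CPM at 1 dpi, at 5.29, 5.94 and 6.10 at 2 dpi, and at 6.12, 7.12, 6.31 and 6.48 at 3 dpi. At 4 dpi it stood at 7.34, 7.91 and 8.20, at 5 dpi at 8.25, and at 6 dpi at 8.54, 8.49 and 8.07. The libraries of 3 dpi overlapped those of 1 dpi, and every library from 4 dpi on lay above every library up to 3 dpi. The difference from 2 to 3 dpi did not pass the test (log2 fold change 0.74, SE 0.29, adjusted p = 0.18). *Myl9* was the only member called from 3 to 4 dpi, where it rose 2.47-fold (log2 fold change 1.30, SE 0.29, adjusted p = 0.018). At 6 dpi it was 4.38-fold higher than at 1 dpi (adjusted p = 3.1e-04), and from 4 to 6 dpi the difference was 0.52 (SE 0.31, adjusted p = 0.35). Its day mean was highest at 6 dpi, while those of the other 9 members were highest between 3 and 5 dpi. That split rests on the single 5 dpi library, without which *Cnn1* and *Actn1* were also highest at 6 dpi.

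Counts within 1 library need no scaling, and the ratio of 2 members shows the difference in course directly. The log2 ratio of *Acta2* to *Myl9* counts lay between 0.69 and 0.94 at 1 dpi and between 0.93 and 2.13 at 2 dpi. At 3 dpi it lay between 2.71 and 3.20, above every library of any other day. It then lay between 1.27 and 2.41 at 4 dpi, at 2.17 at 5 dpi and between -0.03 and 0.98 at 6 dpi. The ratio of *Acta2* to *Tagln* was likewise highest at 3 dpi, with a range of 0.83 to 1.33 against -0.88 to 0.65 on all other days. Relative to both genes, *Acta2* was at its highest at 3 dpi. A ratio within a library removes scaling only, and 3 dpi still cannot be told apart from the other naming of its libraries. These pairs were picked after their levels had been seen, and the ratios are given as a description.

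**Figure D2:**
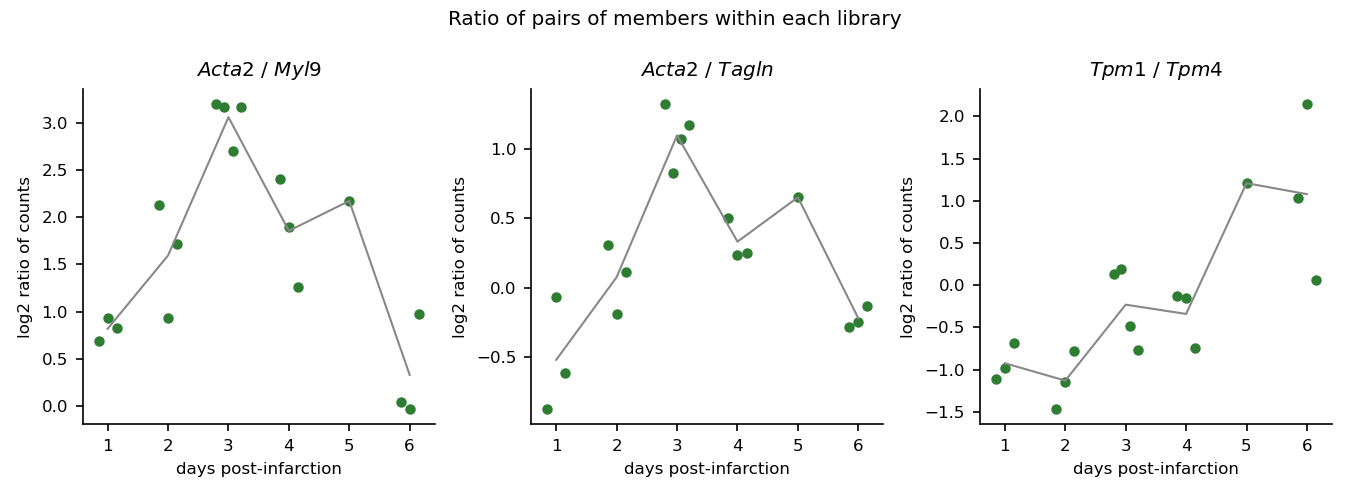
Log2 ratio of the raw counts of 2 members within a library (y axis) against days post-infarction (x axis), 1 point for each of the 17 libraries, with a grey line through the day means. The ratio of *Acta2* to *Myl9* lies between 2.71 and 3.20 at 3 dpi and below that in every other library, and *Tpm1* to *Tpm4* is highest in libraries of 5 and 6 dpi.

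The calponins differed in depth and in how widely their libraries scattered. *Cnn1*, which encodes the smooth muscle calponin, was the member with the fewest counts, between 17 and 507 in a library. Its levels were 1.20, 2.15 and 2.69 log2 CPM at 1 dpi, 0.71, 2.62 and 1.03 at 2 dpi, and 1.88, 3.47, 3.21 and 2.58 at 3 dpi. They were 3.45, 4.19 and 3.90 at 4 dpi, 5.73 at 5 dpi and 3.38, 4.61 and 3.59 at 6 dpi. The single 5 dpi library was the highest of all 17, and the libraries of 2 and 3 dpi overlapped. *Cnn1* did not pass the test from 2 to 3 dpi (log2 fold change 1.23, SE 0.49, adjusted p = 0.18), was 4.62-fold higher at 4 than at 2 dpi (adjusted p = 0.043) and 3.55-fold higher at 6 than at 1 dpi (adjusted p = 0.026). The 4 against 2 dpi call was lost under 8 of 26 alternatives.

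*Cnn2*, a calponin that many non-muscle cells express, scattered less at 1 and 2 dpi. It stood at 7.15, 7.24 and 7.07 log2 CPM at 1 dpi, at 7.02, 6.65 and 7.25 at 2 dpi and at 7.71, 8.62, 7.74 and 8.74 at 3 dpi. It stood at 8.42, 8.42 and 8.25 at 4 dpi, at 8.40 at 5 dpi and at 8.07, 8.03 and 7.63 at 6 dpi. The step between 2 and 3 dpi exceeded the spread, with every 3 dpi library above every earlier one. *Cnn2* rose 2.44-fold over that step (log2 fold change 1.29, SE 0.27, adjusted p = 0.015). The libraries of 6 dpi lay below those of 4 dpi, but the difference of -0.44 (SE 0.28) did not pass the test (adjusted p = 0.39).

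*Tpm1* and *Tpm2* were higher at 3 to 5 than at 1 and 2 dpi, and *Tpm4* did not pass that test. *Tpm1* stood at 6.86, 7.10 and 7.14 log2 CPM at 1 dpi, at 6.95, 6.55 and 7.31 at 2 dpi and at 8.32, 8.66, 8.06 and 8.43 at 3 dpi. It stood at 8.03, 8.15 and 7.80 at 4 dpi, at 8.81 at 5 dpi and at 7.80, 8.28 and 7.87 at 6 dpi. All libraries from 3 dpi on lay above all of 1 and 2 dpi. *Tpm1* rose 2.66-fold from 2 to 3 dpi (log2 fold change 1.41, SE 0.24, adjusted p = 0.0041), and this call was lost under 1 of 27 alternatives, without 2 dpi replicate 2. At 6 dpi it was 1.95-fold higher than at 1 dpi (adjusted p = 0.018).

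*Tpm2*, a tropomyosin of smooth muscle and slow muscle fibres, lay higher from 3 dpi on, with more scatter at 3 dpi. It stood at 7.33, 7.76 and 7.31 log2 CPM at 1 dpi, at 7.76, 7.05 and 7.84 at 2 dpi and at 8.04, 9.62, 8.14 and 8.61 at 3 dpi. It stood at 9.12, 8.72 and 8.99 at 4 dpi, at 8.80 at 5 dpi and at 8.78, 8.65 and 8.27 at 6 dpi. Every library from 3 dpi on lay above those of 1 and 2 dpi, and the 4 libraries of 3 dpi scattered most (SD 0.72). The steps from 2 to 3 dpi (log2 fold change 1.16, SE 0.34, adjusted p = 0.064) and from 2 to 4 dpi (1.36, SE 0.35, adjusted p = 0.07) did not pass the test. *Tpm2* was 2.14-fold higher at 6 than at 1 dpi (adjusted p = 0.047), a call lost under 12 of 26 alternatives.

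*Tpm4*, a tropomyosin of non-muscle cells, was lowest at 6 dpi. It stood at 7.97, 8.07 and 7.83 log2 CPM at 1 dpi, at 8.42, 7.69 and 8.09 at 2 dpi and at 8.20, 8.46, 8.53 and 9.19 at 3 dpi. It stood at 8.15, 8.30 and 8.54 at 4 dpi, at 7.60 at 5 dpi and at 6.78, 6.14 and 7.80 at 6 dpi. The libraries of 1 to 4 dpi overlapped, and the 3 libraries of 6 dpi were below all of 1 and of 4 dpi and differed most among themselves. *Tpm4* differed over the time course (adjusted p = 0.035). From 4 to 6 dpi the difference was -1.27 on the log2 scale (SE 0.35, adjusted p = 0.082), which did not pass. It passed with DESeq2, with every gene of at least 1 count, without 3 dpi replicate 2 and without 6 dpi replicate 3, where it was -1.85 (adjusted p = 0.0041). Over all 26 alternatives it ranged from -1.85 to -0.96, with adjusted p between 0.0041 and 0.371.

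Within libraries, *Tpm1* counts were higher relative to *Tpm4* counts at 5 and 6 dpi than at 1 and 2 dpi, as a comparison of libraries and not of the levels of both genes. The log2 ratio of *Tpm1* to *Tpm4* counts lay between -1.46 and -0.69 at 1 and 2 dpi and between -0.77 and 0.19 at 3 and 4 dpi. It was 1.21 at 5 dpi and between 0.07 and 2.14 at 6 dpi, which overlaps 3 dpi. *Tpm4* made up 22.0% of the 10 members' own counts at 2 dpi and 5.15% at 6 dpi, as means over 3 libraries each. *Myl9* made up 4.64% and 13.1% of them on the same days, and *Acta2* 13.4% and 16.3%, with 25.8% at 3 dpi over 4 libraries. These shares give the make-up of the recovered 3′ ends and not of the proteins.

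Of the cross-linker and the motor of non-muscle stress fibres, *Actn1* rose and *Myh9* did not pass. *Actn1* stood at 7.24, 7.03 and 7.13 log2 CPM at 1 dpi, at 6.62, 6.43 and 7.16 at 2 dpi and at 7.44, 8.65, 7.25 and 8.22 at 3 dpi. It stood at 8.11, 7.79 and 7.85 at 4 dpi, at 8.14 at 5 dpi and at 7.74, 7.93 and 8.15 at 6 dpi. Its means from 3 dpi on differed by less than the spread between libraries. *Actn1* rose 2.35-fold from 2 to 3 dpi (log2 fold change 1.23, SE 0.30, adjusted p = 0.032), a call lost under 6 of 27 alternatives. *Myh9* stood at 5.77, 4.87 and 5.46 log2 CPM at 1 dpi, at 4.95, 4.69 and 5.49 at 2 dpi and at 5.37, 6.76, 5.10 and 6.21 at 3 dpi. It stood at 6.01, 6.33 and 5.02 at 4 dpi, at 6.14 at 5 dpi and at 5.61, 5.16 and 5.90 at 6 dpi. Its libraries overlapped in every comparison of days and it passed none of the tests at the filter used.

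Over neighbouring days, the step from 2 to 3 dpi held most of the calls, and this step cannot be told apart from the other naming of the 3 dpi libraries. From 1 to 2 dpi no member passed the edgeR test, DESeq2 called 0, and 0 had an unadjusted p under 0.05, in a comparison where 0.157% of all genes tested were called higher and 0.0214% lower. From 2 to 3 dpi 5 of 10 members rose, *Acta2*, *Tagln*, *Cnn2*, *Tpm1* and *Actn1*, where 1.82% of all genes were called higher and 1.12% lower. The median log2 fold change of the 10 members was 1.23, against 0.04 over all genes tested. From 3 to 4 dpi 1 member, *Myl9*, rose, where 1.63% of all genes were called higher and 1.08% lower, and the median of the members was 0.06. From 4 to 6 dpi no member passed, where 0.235% of all genes were called higher and 0.278% lower. There, 2 members, *Acta2* and *Tpm4*, had an unadjusted p under 0.05, both with a lower level at 6 dpi, and DESeq2 called *Tpm4*. The median of the members over that step was -0.34. The count of 5 from 2 to 3 dpi depends on the libraries used: it was 1 without 2 dpi replicate 2, 2 without 2 dpi replicate 1 or without 3 dpi replicate 4, 2 in a fit of only the libraries of those days, and 3 among the libraries in which Y-linked counts exceeded *Xist*. *Acta2* was called in each of them. The *Myl9* call from 3 to 4 dpi was lost without 3 dpi replicate 1, without 4 dpi replicate 2 or without 4 dpi replicate 3, and that step cannot be told apart from the shift in *Xist* between these days.

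Over longer spans, 6 of 10 members were higher at 4 than at 2 dpi, *Acta2*, *Tagln*, *Myl9*, *Cnn1*, *Cnn2* and *Tpm1*, where 0.805% of all genes were called higher and 0.378% lower. *Cnn2* was 2.58-fold higher over that span (adjusted p = 0.019) and *Tpm1* 2.04-fold (adjusted p = 0.049, lost under 17 of 26 alternatives), and *Actn1* did not pass (log2 fold change 1.15, SE 0.31, adjusted p = 0.089). Leaving out 2 dpi replicate 1, 4 dpi replicate 1 or 4 dpi replicate 2 left 3 of them, *Acta2*, *Tagln* and *Myl9*. This span does not compare the 3 dpi libraries, but its days differ in *Xist*. Between 1 and 6 dpi 6 of 10 members were higher, *Acta2*, *Tagln*, *Myl9*, *Cnn1*, *Tpm1* and *Tpm2*, where 6.91% of all genes were called higher and 5.21% lower. *Cnn2* (log2 fold change 0.77, SE 0.28, adjusted p = 0.082) and *Actn1* (0.81, SE 0.31, adjusted p = 0.094) did not pass in that comparison. *Tpm4* was the 1 member with a lower mean at 6 than at 1 dpi (-0.89, SE 0.35, adjusted p = 0.098), and without 6 dpi replicate 3 it was -1.47 with an adjusted p of 0.00575. The count was 2 without 1 dpi replicate 1 and 3 without 1 dpi replicate 2 or without 6 dpi replicate 2. All 3 libraries of 6 dpi but 1 of 3 at 1 dpi had more *Xist* than Y-linked counts, and 8 of 10 cardiomyocyte markers were higher at 6 than at 1 dpi, and the part of either in these differences was not tested.

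A contrast of the averaged levels of 3, 4 and 5 dpi with those of 1 and 2 dpi asked which members were higher after 2 dpi. The 6 dpi libraries have no weight in it, so it does not tell a passing rise from one that lasted. Of the 10 members 8 were higher, where 5.25% of all genes tested were called higher and 2.24% lower, and the median log2 fold change was 1.34 over the members and -0.00072 over all genes. *Acta2* was 6.33-fold higher (log2 fold change 2.66, SE 0.25, adjusted p = 1.7e-06). *Cnn1* was 4.82-fold higher (2.27, SE 0.37, adjusted p = 5.0e-04), with overlapping libraries. The single 5 dpi library weighs as much in this average as each replicated day, and *Cnn1* was highest in it. Over 28 alternatives its log2 fold change ranged from 1.49 to 2.87, and the call was kept. *Tagln* was 3.48-fold higher (1.80, SE 0.25, adjusted p = 8.2e-05). *Myl9* was 2.87-fold higher (1.52, SE 0.22, adjusted p = 1.5e-04), with 3 dpi libraries inside the range of 1 dpi. The other 4, *Tpm1*, *Tpm2*, *Cnn2* and *Actn1*, were between 2.10-fold and 2.62-fold higher, each with no overlap between libraries. The share of all genes tested without such overlap is not given here, so this only describes the libraries. *Myh9* did not pass (0.77, SE 0.28, adjusted p = 0.11), nor did *Tpm4* (0.17, SE 0.25, adjusted p = 0.75), whose difference was -0.09 without the 3 dpi libraries. Among the libraries in which Y-linked counts exceeded *Xist*, 7 of 10 were called, without *Tpm2*. With every gene of at least 1 count 9 were called, *Myh9* included, and in each other alternative run 8 were called.

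**Figure D3:**
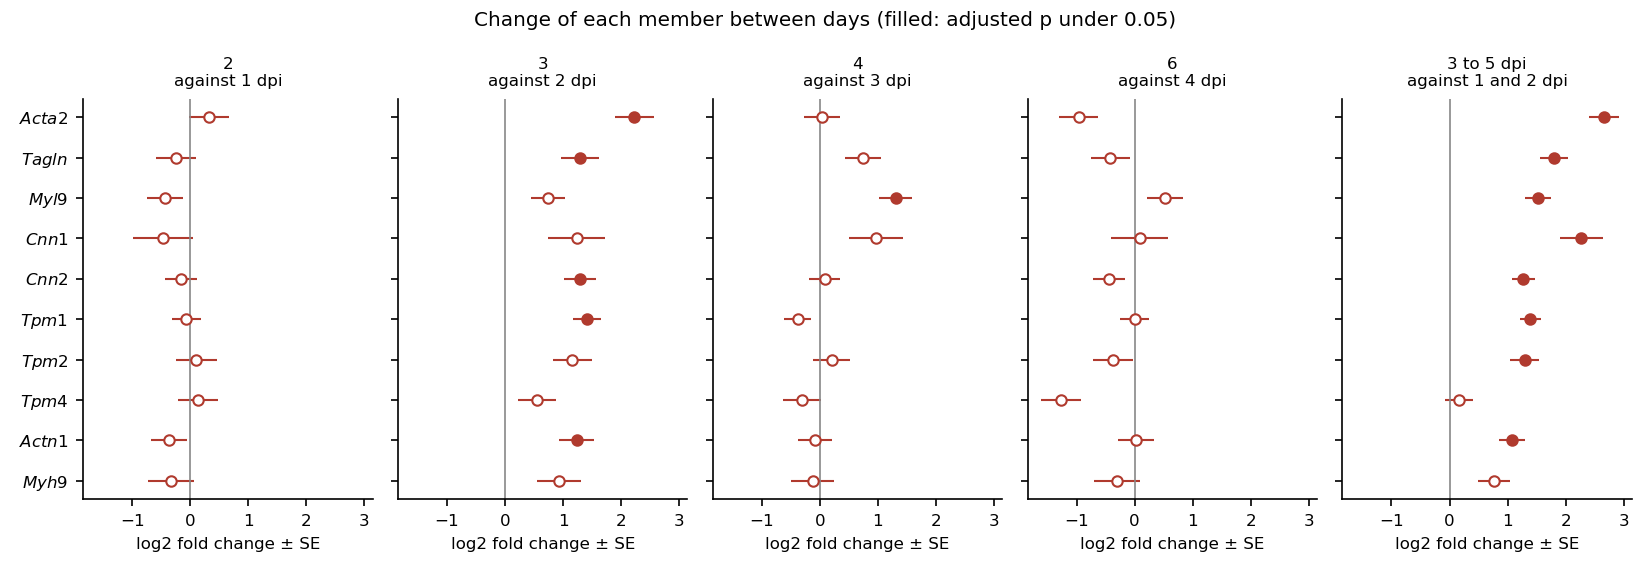
Log2 fold change of each member (x axis, ± SE of the edgeR fit) in 5 comparisons of days, 1 panel each. Filled circles passed at an adjusted p under 0.05 and open circles did not; 5 members are filled from 2 to 3 dpi, *Myl9* alone from 3 to 4 dpi, none from 4 to 6 dpi, and 8 in the comparison of 3 to 5 dpi with 1 and 2 dpi.

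Across the 17 libraries the members fell into a group that varied together and members at its edge. Over the 45 pairs Pearson's r of the log2 CPM values lay between -0.49 and 0.93 (median 0.68). The points share the day and the library, and the values are descriptions. The highest were *Acta2* with *Tpm1* (r = 0.93) and *Cnn2* with *Tpm2* (r = 0.93), and *Acta2* with *Cnn2* followed at 0.91. *Tagln* correlated with *Actn1* at 0.89, *Myl9* with *Cnn1* at 0.86 and *Acta2* with *Myl9* at 0.59. *Tpm4* was apart, with r between -0.49 (with *Myl9*) and 0.22. After the day means were subtracted, over 16 libraries, the median of the pairs was 0.50. *Acta2* and *Tagln* still varied together within days (r = 0.84), whereas *Acta2* and *Cnn1* did not (r = 0.03).

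**Figure D4:**
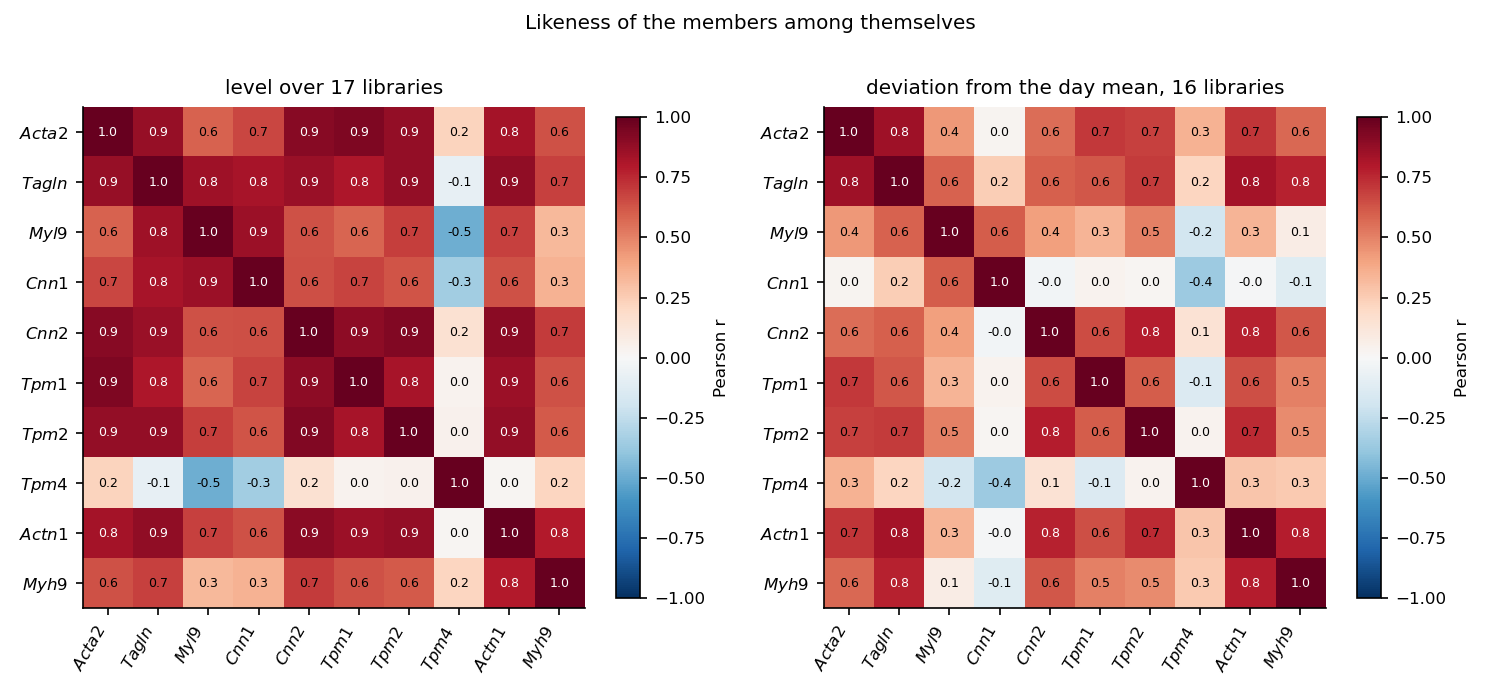
Pearson's r for each pair of the 10 members, as colour and number, from the level in log2 CPM over 17 libraries (left) and from the deviation of each library from its day mean over 16 libraries (right, without the single 5 dpi library). *Tpm4* has low or negative values with the other members in the left panel, and *Acta2* and *Tagln* reach 0.84 in the right one.

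Among 8889 other genes that averaged 100 or more counts per library and were no pseudogenes, the 5 whose levels over the 17 libraries were most like those of *Acta2* were *Fn1*, fibronectin (r = 0.94), *Col1a2*, a collagen I chain (r = 0.94), *Marcksl1* (r = 0.93), *Palld*, palladin (r = 0.92), and *Csrp1* (r = 0.92). The 5 most like the mean of all 10 members, each scaled to its own mean and SD, were *Actg2*, smooth muscle gamma-actin (r = 0.93), the transcription factor *Runx1* (r = 0.91), *Csrp1* (r = 0.91), *Marcksl1* (r = 0.90) and *Palld* (r = 0.90). Matrix genes stood nearest to *Acta2*, and an actin nearest to the mean of the members. *Palld* and *Csrp1* encode proteins of stress fibres and focal adhesions.

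The wider apparatus changed in part. Of 18 paralogues of the members, 17 were tested. From 2 to 3 dpi 3 were called, all of them higher: *Actg2* (log2 fold change 2.45, SE 0.43, adjusted p = 0.0054), the cytoplasmic actin *Actg1* (1.61, SE 0.27, adjusted p = 0.004) and the non-muscle myosin heavy chain *Myh10* (1.00, SE 0.25, adjusted p = 0.039). From 3 to 4 dpi 2 rose, *Actc1* (3.29, SE 0.57, adjusted p = 0.0045), cardiac actin and here also 1 of the cardiomyocyte markers, and the essential light chain *Myl6* (1.09, SE 0.29, adjusted p = 0.046). In the comparison of 3 to 5 with 1 and 2 dpi 5 were called, all of them higher and led by *Actg2* (3.10, SE 0.32, adjusted p = 3.2e-06). Between 1 and 6 dpi 5 were called, again all higher. Of all genes tested, 1.82% were called higher from 2 to 3 dpi and 1.63% from 3 to 4 dpi. The shares were 5.25% in the comparison of 3 to 5 with 1 and 2 dpi and 6.91% between 1 and 6 dpi. The medians of the 17 were 0.23 from 2 to 3 dpi and 0.35 in the comparison of 3 to 5 with 1 and 2 dpi, below those of the members. Over all genes tested these medians were 0.04 and -0.00072.

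Of 27 genes for stress fibre and focal adhesion proteins, 2 were called from 2 to 3 dpi and both rose, *Palld* (log2 fold change 1.77, SE 0.36, adjusted p = 0.011) and *Csrp1* (1.04, SE 0.24, adjusted p = 0.025). At 3 to 5 against 1 and 2 dpi 5 were called, all of them higher and led by *Palld* (2.79, SE 0.27, adjusted p = 1.9e-06), *Csrp1* (1.47, SE 0.18, adjusted p = 2.9e-05) and *Csrp2* (1.25, SE 0.22, adjusted p = 0.0011). At 6 against 1 dpi 5 were called, all of them higher. Of all genes tested, 1.82% were called higher from 2 to 3 dpi, 5.25% at 3 to 5 against 1 and 2 dpi and 6.91% at 6 against 1 dpi. Most of the list did not pass, and its median was 0.18 from 2 to 3 dpi, against 0.04 over all genes tested.

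Few regulators of myosin phosphorylation and of the thin filament were called, and those named here went both ways. Of 20 listed, 19 were tested. At 3 to 5 against 1 and 2 dpi 1 was called higher and 1 lower, where 5.25% of all genes were called higher and 2.24% lower. At 6 against 1 dpi 2 were called higher and 2 lower, where 6.91% of all genes were called higher and 5.21% lower. Counts this small only describe the list. *Mylk*, the kinase that phosphorylates regulatory light chains, was higher at 3 to 5 than at 1 and 2 dpi (log2 fold change 1.48, SE 0.29, adjusted p = 0.0026), and *Rock1*, which encodes a kinase that acts on myosin phosphatase, was lower (-0.96, SE 0.23, adjusted p = 0.011). At 6 against 1 dpi *Mylk* (1.91, SE 0.41, adjusted p = 0.0052) and *Ppp1r14a*, an inhibitor of myosin phosphatase (1.51, SE 0.31, adjusted p = 0.0037), were higher and *Rock1* and *Rock2* lower. The median of the list was -0.15 from 2 to 3 dpi and 0.04 in the comparison of 3 to 5 with 1 and 2 dpi.

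Markers of other cells moved beside these results. The 12 mural markers summed to between 73.7 and 122 CPM at 1 and 2 dpi, 151 and 191 CPM at 3 dpi, 155 and 244 CPM at 4 dpi, 321 CPM at 5 dpi and 234 and 294 CPM at 6 dpi. Of the 12, 3 rose from 2 to 3 dpi, 7 were higher at 3 to 5 than at 1 and 2 dpi, led by *Cspg4* (log2 fold change 2.07, SE 0.25, adjusted p = 2.2e-05), and 7 at 6 than at 1 dpi. For this list and those below, 1.82% of all genes tested were called higher from 2 to 3 dpi and 1.63% from 3 to 4 dpi. The shares were 5.25% at 3 to 5 against 1 and 2 dpi and 6.91% at 6 against 1 dpi. None of the 12 mural markers had 0 counts in any library, and their part in the members' rise was not tested. Both the mural sum and the summed share of the members were highest in the single 5 dpi library. At 6 dpi the members' share lay below that of 4 dpi, and the mural sums of these days overlapped. From 4 to 6 dpi 10 of the 12 mural markers had a log2 fold change above 0 (median 0.51), and 0 were called. Of all genes tested, 49.0% were above 0 over that step. The members' share does not stand for each member: from 4 to 6 dpi 4 of 10 had a log2 fold change above 0, *Myl9* the largest (0.52). What links the mural sum and the members was not tested. The 10 cardiomyocyte markers summed to between 12.3 and 54.7 CPM at 1 to 3 dpi, 69.6 and 113 CPM at 4 dpi, 28.3 CPM at 5 dpi and 135 and 329 CPM at 6 dpi, and 7 of 10 rose from 3 to 4 dpi, the step at which *Myl9* and *Actc1* rose. The study's methods pass the digest through a strainer meant to hold back cardiomyocytes, and the part of these markers in those changes was not tested. The 9 leukocyte markers summed to between 13.1 and 49.6 CPM at 1 and 2 dpi, 59.3 and 229 CPM at 3 dpi, 23.9 and 45.6 CPM at 4 and 6 dpi and 82.3 CPM at 5 dpi, and 2 of 9 rose from 2 to 3 dpi. Replicates 3 and 4 held the most of the 3 dpi libraries, at 229 and 218 CPM. With 3 dpi taken from replicates 1 and 2 alone, an alternative chosen after the data were seen, 6 of 10 members rose from 2 to 3 dpi, with *Acta2* at 2.47 and *Tpm2* gained, and *Myl9* from 3 to 4 dpi was 1.13 (adjusted p = 0.12). The 8 endothelial markers summed to between 19.2 and 81.5 CPM and the 5 epicardial markers to at most 546 CPM, the latter at 6 dpi.

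**Figure D5:**
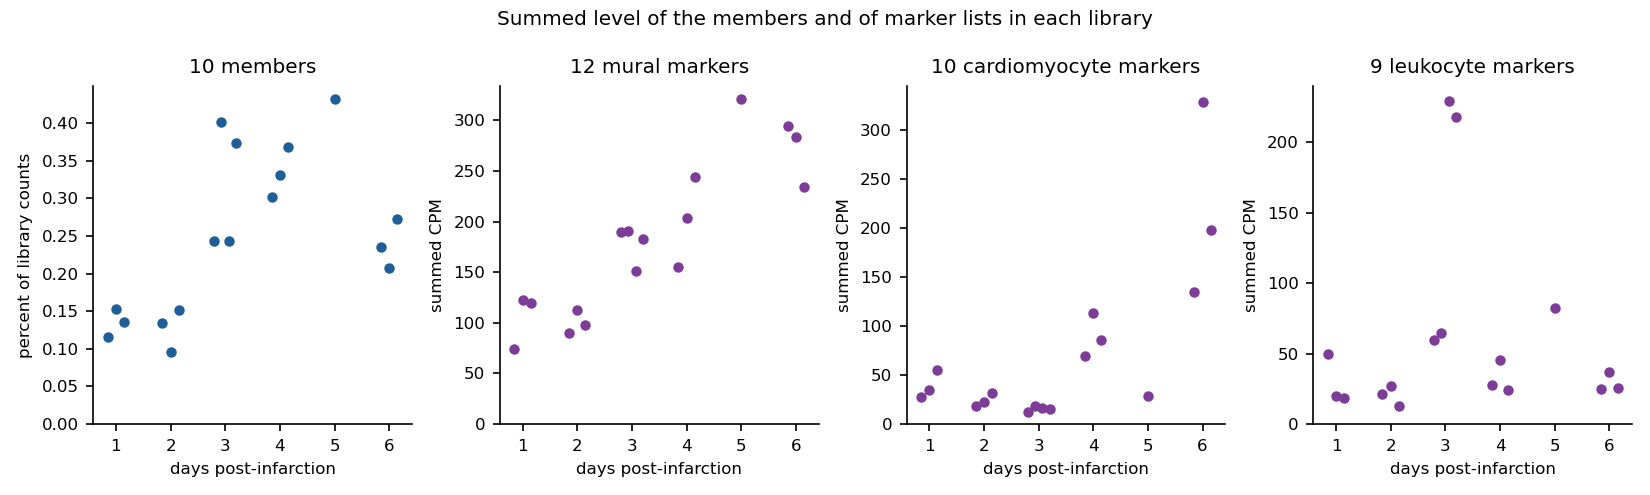
Summed counts of the 10 members as a percentage of the library's counts (left) and summed CPM of 12 mural, 10 cardiomyocyte and 9 leukocyte markers (y axes, from 0) against days post-infarction (x axes), 1 point for each of 17 libraries. The members' sum is highest at 5 dpi, mural markers are highest at 5 and 6 dpi, cardiomyocyte markers at 6 dpi and leukocyte markers in 2 of the 4 libraries of 3 dpi.

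The members lie on 8 chromosomes (GENCODE vM21, GRCm38), with *Tagln*, *Cnn1* and *Tpm1* on chromosome 9. *Acta2* spans chr19:34241090-34255590, *Myl9* chr2:156775420-156781658 and *Tpm4* chr8:72134975-72153142. Exons of *Tagln* overlap those of *Pcsk7* and of 1 predicted gene on the opposite strand, those of *Tpm4* 1 such gene and those of *Actn1* 2, and the strand setting of the counting is not given in the sources used here, so that reads in the overlaps cannot be told apart. For the other 7 members no listed gene overlaps an exon. In the last 500 bases of the members' transcripts, no run of 68 bases, the length of a read, occurred in a transcript of any other gene, so that reads of this kind from close paralogues such as *Actg2* would not match them in full.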

How the data were processed

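Sorted CFs of 17 libraries were sequenced by bulk MARS-seq with reads of 68 bases. Per the labels and the study's methods, the authors demultiplexed with bcl2fastq 1.2.4, aligned with STAR to mm10 and counted genes with featureCounts on an Ensembl GRCm38 annotation. The deposited values are raw counts per gene, and no column was left out. Collapsing of duplicates by molecular identifiers is not given in the sources used here, so that intervals of counting would cover counting error only. The authors used DESeq2 for their own comparisons.

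Libraries were grouped by the day in their labels. The 14030 genes that reached 10 counts in 3 or more libraries were TMM-normalized and tested with edgeR 4.0.16 (R 4.3.3), by the quasi-likelihood F-test with day as a factor of 6 levels over all 17 libraries and Benjamini-Hochberg adjustment, called at 0.05. SE is the log2 fold change divided by the square root of F. With totals of 8021815 to 22029938 counts, 3 counts correspond to 0.136 to 0.374 CPM. Alternatives were DESeq2 1.42.0, other size factors and filters, robust spread, a replicate block, subsets of libraries and leaving out each library. The test was tested on simulated data. Symbols and positions came from GENCODE vM21 and promoters from RefSeq.

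The members and lists were chosen with earlier results of these data known. All members are named. From each list at most 3 called genes of the largest change with a mean of at least 100 counts were named per comparison, besides paralogues of the members, and the 5 genes most like *Acta2* and the mean of the members. *Dcn*, *Col1a1*, *Ptprc*, *Pecam1*, *Cdh5*, *Tek*, *Myh11* and *Rgs5* were named as defining markers. Some results of the regulator list are not reported here.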

Additional observations from a re-analysis of the deposited data

How the results depend on the processing

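The count of members called from 2 to 3 dpi, 5, was 8 with every gene of at least 1 count, 3 among the libraries in which Y-linked counts exceeded *Xist*, 2 in a fit of only the libraries of those days and 1 to 6 when 1 library was left out. From 3 to 4 dpi the count of 1 was 0 in a fit of only the libraries of those days and 0 with 3 dpi from its replicates 1 and 2 alone, an alternative chosen after seeing the data, and 0 to 2 when 1 library was left out. From 4 to 6 dpi the count of 0 was 1 with DESeq2, 1 with every gene of at least 1 count and 0 to 1 when 1 library was left out. Leaving out 1 library gave 3 to 8 members at 4 against 2 dpi, 2 to 8 at 6 against 1 dpi, 6 to 9 over the time course, 8 at 3 to 5 against 1 and 2 dpi and 0 at 2 against 1 dpi.

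On average, libraries of the same replicate number were hardly more alike than others. Deviations from the day mean correlated at 0.0108 between libraries of the same number (30 pairs) and at -0.00512 otherwise (72 pairs). Still, 8 of 16 libraries were closest to one of their own number, and whether the numbers pair the libraries was not tested. With the replicate number as a block, 2 members were called from 2 to 3 dpi, and no other count of members moved by more than 1.5 times. The 5 dpi library is number 3 by its title and 1 by its description, and the block used 3. The log2 fold change of Tpm4, 3 to 5 dpi against 1 and 2 dpi, was 0.17 and not called, and it was -0.00233 with the replicate block and -0.087 without the 3 dpi libraries. The cause of these shifts was not tested, and the subsets also held fewer libraries.

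Values of single members were tallied only for comparisons that were called or picked for reporting. With 1 library left out, 602 of them kept both sign and call, 60 lost and 10 gained a call. Under the other alternatives 407 kept both, 17 lost and 22 gained a call and 2 changed sign. *Acta2* kept its call at 3 against 2, 4 against 2, 6 against 1 and 3 to 5 against 1 and 2 dpi under every alternative run. The single 5 dpi library is the highest day of 7 members, and without it 7 of 10 members were highest at 3 or 4 dpi, against 9 at 3 to 5 dpi with it. Depth limits *Cnn1* most, with 17 counts in its lowest library.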
